A study of Homo sapiens with 6 samples.

Results

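Short loops, the listed contacts whose 2 anchors had midpoints less than 20 kb apart, made up 33255 of the 736589 loops listed over 6 HiChIP libraries (4.51%). They held 452665 of 3369171 paired-end tags (13.4%). Each loop links 2 regions, its anchors, and a paired-end tag (PET) is a sequenced DNA pair that joins them. HiChIP combines chromosome conformation capture with immunoprecipitation, so contacts are seen where a chosen chromatin protein or histone mark is present. Counting a pair of anchors once per group, there were 17174 short loops among 501242 loops. The choice used only the distance between midpoints and no PET count.

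All libraries came from G401, an established human rhabdoid tumour cell line without SMARCB1, which encodes a core part of the SWI/SNF chromatin remodeller. The line carried a SMARCB1 gene that doxycycline switches on. There were 3 groups of 2 libraries. ARID1A HiChIP was done at day 3 of doxycycline (1 μg/ml), in cells labelled SMARCB1 +/+. ARID1A is a subunit of one form of SWI/SNF. H3K27ac HiChIP was done at the same day 3 in the same SMARCB1 +/+ cells. H3K27ac HiChIP at day 0 used cells labelled SMARCB1 -/-. H3K27ac, acetylation of lysine 27 of histone H3, marks active enhancers and promoters. No group had doxycycline without SMARCB1, so these and the days in culture cannot be told apart, and the labels do not say whether the inducible line is 1 clone or whether replicates were separate cultures.

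Chromatin segments this close meet often in any nucleus, because contact frequency falls steeply with distance along the DNA. Contacts at this scale lie within a single gene or enhancer neighbourhood, including promoters with nearby enhancers and the separate peaks of a clustered enhancer. SWI/SNF slides and ejects nucleosomes at such sites, and loss of SMARCB1 is the defining lesion of rhabdoid tumours, in which enhancer function is known to be impaired.

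Libraries held 253502 to 982141 PETs, with the H3K27ac day 3 libraries deepest and the day 0 libraries shallowest. Anchor lists differed between groups, so sites that lack anchors in one group went unmeasured in it. The libraries are of bulk cells, and a contact made in fewer cells cannot be told apart from a weaker contact in every cell.

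The first question was whether the number and weight of short loops differed between H3K27ac at day 3 of SMARCB1 re-expression and day 0. The day 3 libraries listed 5111 and 5120 short loops, against 1901 and 1894 at day 0. The groups did not overlap, and the ratio of means was 2.70 (5115.5 ± 6.36 and 1897.5 ± 4.95, SD, n = 2 each). Short loops nevertheless held a smaller share of the PETs at day 3, with 12.02% and 11.99%, against 14.5% and 14.4% at day 0. The means were 12.003% ± 0.0235 and 14.4% ± 0.0825, a difference of -2.44 percentage points. Short loops also made up 3.15% and 3.16% of loops at day 3, against 4.07% and 4.29% at day 0. That order turned over when every library was thinned to 253502 PETs, where short loops were 5.42% of loops at day 3 and 4.33% at day 0. The share of PETs kept its order after thinning, with 11.97% at day 3 and 14.45% at day 0.

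The second question was how ARID1A contacts compared with H3K27ac contacts in the same day 3 cells. The ARID1A libraries listed 9587 and 9642 short loops, against 5111 and 5120 for H3K27ac. Every ARID1A library was above every H3K27ac library, with a ratio of 1.88 (9614.5 ± 38.9 and 5115.5 ± 6.36, SD, n = 2 each). Counting loops with a deposited value of 0.01 or less, the ratio was 1.15, with means of 1133 for ARID1A and 987 for H3K27ac. Short loops made up 6.08% and 5.88% of ARID1A loops, against 3.15% and 3.16% of H3K27ac loops. They held 15.9% and 15.8% of ARID1A PETs, against 12.02% and 11.99% of H3K27ac PETs, a difference of 3.85 percentage points between means of 15.8% ± 0.110 and 12.003% ± 0.0235. With 2 libraries against 2, an exact two-sided permutation test cannot give a p below 0.33. It gave 0.33 for the number of short loops and both shares in both comparisons, so none can pass 0.05.

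**Figure D1:**
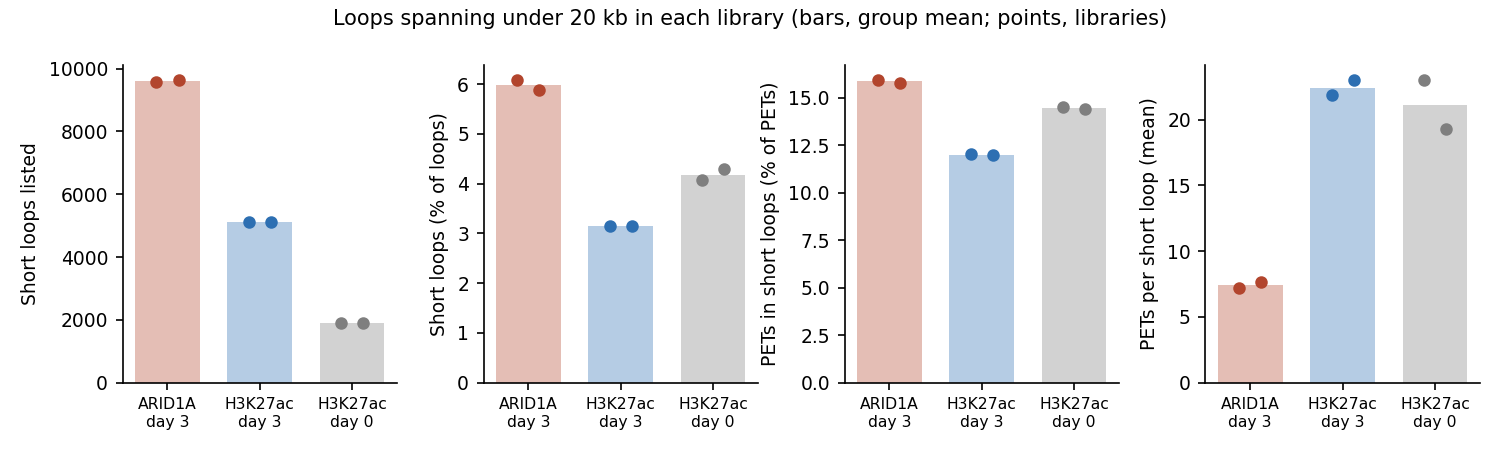
Number of short loops, their share of listed loops, their share of PETs and their mean PETs, with bars for group means (n = 2) and points for libraries. ARID1A libraries had the most short loops (9587 and 9642) and the fewest PETs in each (7.23 and 7.65), and H3K27ac day 3 had the lowest share of PETs in short loops (12.02% and 11.99%).

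Mean PETs per short loop were lower for ARID1A. Its short loops held a mean of 7.23 and 7.65 PETs, against 21.9 and 23.0 for H3K27ac at day 3, a ratio of 0.332 with no overlap between groups (exact permutation p = 0.33, n = 2 each). With every library thinned to 253502 PETs the means were 4.55 and 6.57 PETs, a ratio of 0.692. H3K27ac short loops held 21.9 and 23.0 PETs at day 3, against 23.0 and 19.3 at day 0. These ranges overlapped, the day 3 to day 0 ratio of 1.06 had an exact permutation p of 1 (n = 2 each), and without day 0 replicate 2 the ratio was 0.974. Depth differed between these groups. Scaled to the PETs listed in its library (PETs per 1000000, PPM), a short loop held 16.6 and 16.4 for ARID1A, 23.5 and 23.4 for H3K27ac at day 3, and 76.3 and 76.0 at day 0. On that scale an average day 0 short loop held the largest part of its library, in a list with far fewer short loops.

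Averaged over all longer spans, the other loops of each library held fewer PETs. These longer loops averaged 2.47 and 2.55 PETs for ARID1A, 5.21 and 5.50 for H3K27ac at day 3, and 5.76 and 5.14 at day 0. A single PET supported 10.99% and 10.2% of ARID1A short loops, 2.504% and 2.38% of day 3 H3K27ac short loops, and 1.58% and 2.85% of those at day 0. Among longer loops, 41.9% to 60.0% rested on a single PET over the 6 libraries. The deposited value between 0 and 1 did not follow that order, since a value of 0.01 or less was carried by 11.6% and 11.99% of ARID1A short loops against 16.0% and 16.4% of its longer loops. The same held for H3K27ac at day 3 (19.0% and 19.6% of short, 21.8% and 22.0% of longer loops) and at day 0 (18.6% and 17.6%, against 20.5% and 19.9%).

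Nearly every pair of anchors close enough for a short loop had one listed. Anchors here are those of listed loops, so a site without any listed loop was not counted as a possible pair. The ARID1A anchors offered 10298 pairs with midpoints 5 to 20 kb apart, those of H3K27ac 5187 at day 3 and 1910 at day 0. Of these, 93.1% and 93.6% were listed for ARID1A, 98.5% and 98.7% for H3K27ac at day 3, and 99.5% and 99.2% at day 0. The number of short loops went with the number of close anchor pairs in each list, in part by construction. The exact permutation p was 0.33 for ARID1A against H3K27ac at day 3 and for day 3 against day 0 (n = 2 each). Anchors with a short loop were 53.9% and 54.0% of all ARID1A anchors, 45.9% and 46.0% of H3K27ac anchors at day 3, and 35.4% of those in each day 0 library.

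Across the 20 kb limit the loops changed little in strength. In the ARID1A libraries, loops of 17.5 to 20 kb averaged 7.40 and 7.59 PETs, and those of 20 to 22.5 kb 7.21 and 7.72. At day 3, H3K27ac loops had 24.3 and 25.5 PETs inside the limit, and 23.4 and 24.7 outside it. At day 0 they had 24.1 and 19.8 inside, and 23.5 and 19.2 outside. Listing fell with span for ARID1A, to 89.7% and 90.0% of possible pairs at 17.5 to 20 kb, against 95.9% and 97.5% at 5 to 7.5 kb. Both H3K27ac groups listed at least 98.0% of the pairs in every 2.5 kb bin inside the limit.

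**Figure D2:**
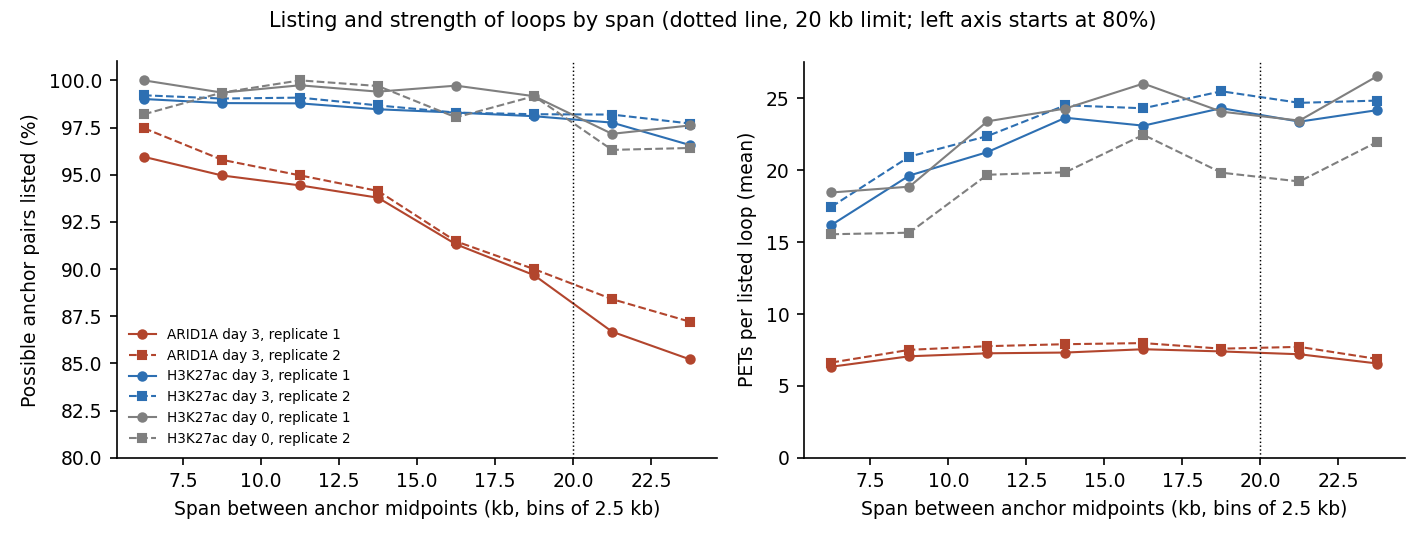
Share of possible anchor pairs that were listed (left, axis from 80%) and mean PETs per listed loop (right) by the span between midpoints, in bins of 2.5 kb, for each library. ARID1A pairs were listed less with span, from 95.9% and 97.5% at 5 to 7.5 kb to 89.7% and 90.0% at 17.5 to 20 kb, and its loops held 6.34 to 7.98 PETs in every bin inside the dotted 20 kb limit.

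Median span was close to 13 kb in every library, 13.1 kb for ARID1A, 13.2 kb for H3K27ac at day 3 and 13.1 kb at day 0. Much of that distance was anchor. The median gap between facing anchor edges was 5188 and 5177 bp for ARID1A, 5318 and 5319.5 bp for H3K27ac at day 3, and 5062 and 5053 bp at day 0. No gap was under 501 bp in any file. Gaps under 2 kb belonged to 18.7% of ARID1A short loops and held 31.4% of their PETs. The shares were 19.4% of loops and 31.2% and 31.5% of PETs for H3K27ac at day 3, and 19.1% of loops and 28.0% and 27.6% of PETs at day 0.

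PETs per short loop went with anchor width and with the gap more than with the span. Over the short loops of a library, the Spearman correlation of PETs with the joint width of both anchors was 0.64 in each ARID1A library, 0.60 and 0.59 for H3K27ac at day 3, and 0.59 and 0.56 at day 0. With the gap it lay between -0.54 and -0.41 over the 6 libraries, and with the span between -0.07 and 0.003. These describe 1894 to 9642 loops that share a library, and many share an anchor, so they carry no p. In the first day 3 H3K27ac library, mean PETs were 10.0, 15.4, 27.6 and 51.5 for joint widths under 10 kb, 10 to 15 kb, 15 to 20 kb and 20 kb or more. The first ARID1A library had 3.30, 5.50, 9.02 and 15.6 PETs in the same classes. Relative to the product of both anchor widths, PETs did not rise with width. Median PETs per 10 kb by 10 kb were 41.3, 33.4, 34.8 and 33.7 in that H3K27ac library. They were 15.6, 13.6, 12.8 and 11.6 in that ARID1A library, and the narrowest class was highest in every library. Loops of 20 kb joint width or more were 15.1% to 15.7% of short loops in every library and held 33.5% to 35.6% of their PETs.

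Anchors with a short loop were somewhat wider than the rest. Their median width was 5836 bp for ARID1A against 5483.5 bp for other anchors, 5796.5 bp against 5552 bp for H3K27ac at day 3, and 5917 bp against 5434 bp at day 0. They also held more longer-range PETs at like width. Among anchors of 4 to 6 kb, those with a short loop had 16.1 and 17.3 PETs in longer loops in the ARID1A libraries, against 10.3 and 10.97 for other anchors. The values were 49.4 and 51.6 against 36.4 and 38.8 for H3K27ac at day 3, and 34.8 and 30.1 against 21.6 and 18.7 at day 0. Over all widths this ratio was near 1 for ARID1A (0.999 and 0.998) and H3K27ac at day 3 (0.958 and 0.949), and 1.19 and 1.20 at day 0.

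Most short loops joined neighbours in the anchor list. This was so for 92.7% and 92.6% of ARID1A short loops, 93.9% of those of each day 3 H3K27ac library, and 94.8% and 94.7% at day 0. Neighbour loops held 96.4% to 97.3% of the short-loop PETs of each library. Linked end to end, short loops formed 5061 runs for ARID1A, 3141 for H3K27ac at day 3 and 1230 at day 0, of which 1955, 1006 and 377 had 3 or more anchors. The longest ARID1A run lay in 1p35.1 (hg19, chromosome 1, 32369098 to 32540331), with 12 anchors over 171 kb and 219 and 224 short-loop PETs. The 100 kb window with the most ARID1A short-loop PPM overlapped that run (32500000 to 32600000), with 116 and 120 PETs, against 44 in both H3K27ac libraries of day 3. A 4p14 window (chromosome 4, 39900000 to 40000000) had 101 and 100 ARID1A short-loop PETs and none for H3K27ac at either time. A run of 10 anchors, the most at day 3 for H3K27ac, lay in 19q13.32 (chromosome 19, 47341037 to 47439409, 184 and 179 PETs). At day 0 an 8-anchor run in 3q25.1 (chromosome 3, 148990242 to 149109220) had 192 and 136 PETs, and one in 19q13.32 (45905638 to 46011137) had 160 and 152.

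The X chromosome had the highest share of short loops in each group. Short loops were 12.03% ± 0.577 of ARID1A loops on X (SD, n = 2), and 5.49% and 8.28% on average for H3K27ac at day 3 and day 0. X held few of them, a mean of 86, 61.5 and 12 short loops per library. Per 100 anchors X had 24.4 short loops for ARID1A, the lowest of the chromosomes compared. H3K27ac had 22.3 on X at day 3 and 16.4 at day 0, and chromosome 13 was lower at both times. ARID1A short loops on X held means of only 3.23 and 3.27 PETs, and the share of loops that are short turned over with depth in the day comparison. The lowest shares were 5.40% on chromosome 2 for ARID1A, 2.23% on chromosome 19 for H3K27ac at day 3, and 3.199% on chromosome 1 at day 0. Chromosome Y was left out here.

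Replicates listed short loops in common more often than longer ones. Matching anchor pairs by exact coordinates, 9126 of 10103 ARID1A short loops were in both replicates (90.3%, 95% Wilson interval 89.7 to 90.9). The counts were 5067 of 5164 for H3K27ac at day 3 (98.1%, 97.7 to 98.5) and 1888 of 1907 at day 0 (99.0%, 98.4 to 99.4). Loops of 20 to 100 kb were shared at 66.5%, 88.9% and 90.0% in the same order of groups, and loops of 100 kb and over at 28.3%, 48.4% and 46.1%. Such intervals cover counting error only, and PETs are not known to be independent molecules. Most anchors matched to the base between the replicates of a group, and how they were called is not given. If a group's anchors were called once for both, much of this sharing was fixed in advance, since nearly every close pair was listed. It is then no separate measure of agreement between replicates. Short loops in 1 replicate alone were weak, with at most 12 PETs, and a single PET for 41.2% of them in ARID1A, 30.9% in H3K27ac at day 3 and 36.8% at day 0.

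PETs of the shared short loops had a Spearman correlation between replicates of 0.753 for ARID1A, 0.918 for H3K27ac at day 3 and 0.896 at day 0. Thinned to 253502 PETs per library, 81.0%, 85.7% and 98.8% of short loops were in both replicates, in the same order of groups. Loop by loop, replicates differed no more than counting noise. Over short loops of 10 PETs or more, chi-square per degree of freedom was 1.01 for ARID1A, 1.01 for H3K27ac at day 3 and 1.05 at day 0 (p = 0.317, 0.372 and 0.0614). Summed by chromosome, the PETs of all loops did differ between replicates in each group (chi-square p = 0.00142, 0.000802 and 3.39e-20). Summed by span class, they differed for H3K27ac at day 3 and at day 0 (chi-square p = 3.63e-49 and 7.85e-09). For ARID1A no such difference was seen (chi-square p = 0.351). Replicates were therefore kept as 2 libraries each. A p-value from them measures only how far these libraries vary, which may be a technical spread.

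What the other groups held at the ends of a short loop was looked up for loops listed in both replicates. Both ends are said to lie in a single anchor where 1 anchor overlapped both, even if it did not cover them whole. Such loops were counted apart, although another anchor could still give a listed loop there. Shares with a listed loop can therefore be too low. Of the 5067 H3K27ac short loops of day 3, day 0 had anchors at both ends and a listed loop for 907 (17.9%, 95% Wilson interval 16.9 to 19.0). These held 35.9% of the PETs. Day 0 had an anchor at 1 end for 2270 (44.8%) and at neither end for 1801 (35.5%). In 2 cases both ends had day 0 anchors and no loop was listed. Of the 1888 short loops of day 0, 1038 (55.0%, 52.7 to 57.2) were listed at day 3 as well, and in 502 (26.6%) both ends lay in a single day 3 anchor. Day 3 had an anchor at 1 end for 290 (15.4%) and at neither end for 58 (3.07%). Where both ends had separate day 3 anchors, a loop was listed in all 1038 cases.

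For 87 day 3 short loops both ends lay in a single day 0 anchor, a class that can hold sites with a listed loop. Of the other day 3 short loops without a matched day 0 loop, all but 2 lacked a day 0 anchor at 1 or both ends. The short loops listed at both times were the stronger ones of day 3, with means of 43.9 and 46.7 PETs in the day 3 libraries. Those with no day 0 anchor at either end averaged 11.03 and 11.46. The day 0 short loops whose ends fell in a single day 3 anchor had a median gap of 2478 bp.

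Of the 9126 ARID1A short loops, 2229 (24.4%, 23.6 to 25.3) had anchors and a loop in H3K27ac at day 3. The H3K27ac list had an anchor at 1 end for 3865 (42.4%) and at neither end for 2477 (27.1%). For 547 (5.99%) both ends lay in a single H3K27ac anchor. Some such sites still had a listed H3K27ac loop at day 3. Among the 10 strongest ARID1A short loops these were in 14q24.1 (45 and 47 PETs), 3q22.1 (73 and 64) and 11q13.5 (31 and 43). A 6q16.3 site of this class had none. In the opposite direction, 2458 of 5067 H3K27ac short loops (48.5%, 47.1 to 49.9) were matched by an ARID1A loop, 837 (16.5%) lay in a single ARID1A anchor, and 349 (6.89%) had no ARID1A anchor at either end. The day 3 H3K27ac libraries enter both pairs of groups.

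**Figure D3:**
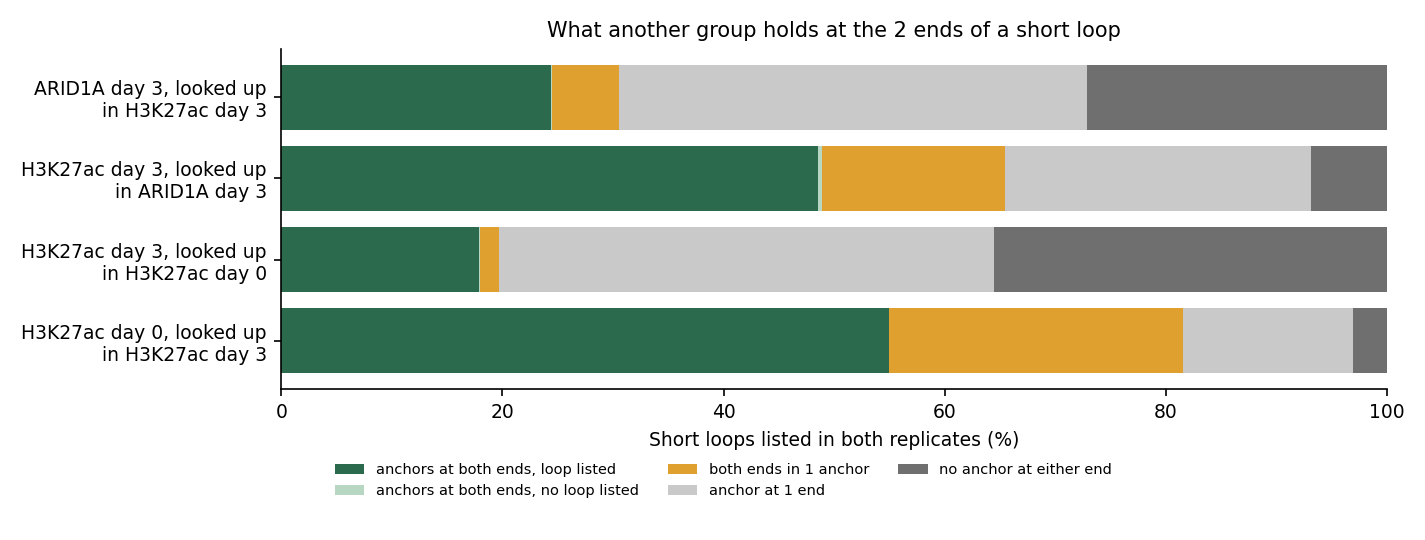
What another group held at the ends of the short loops listed in both replicates, as a share of those loops. Anchors at both ends without a listed loop were too rare to see well (8 of 9126 ARID1A loops and 2 of 5067 day 3 H3K27ac loops). For 26.6% of day 0 short loops a single day 3 anchor overlapped both ends, a class that can hold sites with a listed loop.

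The strongest short loops were of wide anchors with small gaps. The 10 with the highest PPM in each group had joint widths of 31160 to 38300 bp and gaps of 639 to 2207 bp for ARID1A. For H3K27ac these were 24589 to 36402 bp and 999 to 3607 bp at day 3, and 25035 to 38736 bp and 554 to 4311 bp at day 0. Regions are given by hg19 position and cytoband, since no gene annotation of that build was used here. Values of other groups are for every listed loop between anchors that overlap both ends, whatever its span.

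The strongest ARID1A short loop joined 6088471 to 6108302 and 6110078 to 6124977 in 7p22.1 (chromosome 7). It held 59 and 47 PETs (135.6 and 100.5 PPM), against 49 and 53 PETs (52.7 and 54.0 PPM) for H3K27ac at day 3. The H3K27ac anchors there were narrower, with 11316 and 9821 bp against 19831 and 14899 bp for ARID1A, and no loop was listed at day 0, where only 1 end had an anchor.

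In 6q16.3 (chromosome 6), the loop from 105127441 to 105144209 and 105146416 to 105160808 held 40 and 60 ARID1A PETs. At day 3 a single H3K27ac anchor of 28159 bp overlapped both ends, and no H3K27ac loop was listed. At day 0 H3K27ac had 114 and 75 PETs there. The next loop along, to 105161796 to 105184764, held 39 and 50 ARID1A PETs. For that loop H3K27ac had an anchor at 1 end only at both times, and no H3K27ac loop was listed.

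In 12q13.13 (chromosome 12), the ARID1A loop between 53311267 to 53328940 and 53330130 to 53344110 held 42 and 54 PETs, against 271 and 286 for H3K27ac at day 3. H3K27ac had 106 and 98 PETs there at day 0. Relative to library size the ARID1A loop was the weakest of the 3 groups, with 96.5 and 115.5 PPM. H3K27ac had 291.7 and 291.2 PPM at day 3, and 351.3 and 386.6 at day 0. The H3K27ac loops there spanned 36.3 kb at day 3 and 23.9 kb at day 0, so neither was short.

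For 2 other strong ARID1A short loops no H3K27ac loop was listed. The 12q14.2 loop (chromosome 12, 63103800 to 63114280 and 63115290 to 63136906) held 38 and 57 PETs, and the 17q21.31 loop (chromosome 17, 42517388 to 42540817 and 42541784 to 42554101) held 49 and 43. Neither had an H3K27ac anchor at both ends at day 3. At day 0 the 12q14.2 ends lay in a single H3K27ac anchor of 33604 bp.

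Among H3K27ac short loops of day 3, the strongest lay in 5q31.2 (chromosome 5, 139059815 to 139082941 and 139084362 to 139094539). It held 272 and 278 PETs at day 3 (292.7 and 283.1 PPM), against 167 and 136 at day 0 (553.5 and 536.5 PPM). It was among the 10 strongest at both times and was called over nearly the same bases at both (anchors of 23126 and 10177 bp at day 3, and of 23299 and 9370 bp at day 0). A single ARID1A anchor of 30666 bp overlapped both ends without covering them whole.

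The second was in 6p21.33 (chromosome 6, 30705420 to 30722809 and 30724184 to 30739547), where H3K27ac had 257 and 275 PETs at day 3, against 113 and 91 at day 0. Scaled to the library, day 3 was lower, with 276.6 and 280.0 PPM, against 374.5 and 359.0 at day 0. No ARID1A anchor was called at either end. The 100 kb window around it had the highest mean short-loop PPM over both day 3 H3K27ac libraries, with 514 and 537 PETs over 5 loops and none for ARID1A. A window in 10q22.1 was above it in replicate 1 (557.5 against 553.2 PPM).

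The third, in 4p16.2 (chromosome 4, 4851147 to 4871724 and 4872723 to 4886141), held 231 and 250 H3K27ac PETs at day 3, when ARID1A had 20 and 24. At day 0 a single H3K27ac anchor of 34636 bp overlapped both ends. In 20q11.21 (chromosome 20, 30174538 to 30186645 and 30188551 to 30201501) H3K27ac had 219 and 238 PETs at day 3, against 98 and 92 at day 0. On the PPM scale H3K27ac had 235.7 and 242.3 at day 3, against 324.8 and 362.9 at day 0. ARID1A had 27 and 21 PETs there. Its anchors were of similar width (16048 and 12130 bp, against 12107 and 12950 bp for H3K27ac at day 3). In 10q22.1 (chromosome 10, 74006713 to 74026806 and 74028936 to 74040430) H3K27ac had 224 and 202 PETs at day 3, against 109 and 101 at day 0. That was 241.1 and 205.7 PPM at day 3, against 361.3 and 398.4 at day 0. A single ARID1A anchor of 46597 bp overlapped both ends there.

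At day 0 the strongest short loop lay in 17q21.31 (chromosome 17, 42611964 to 42628605 and 42631043 to 42641136) with 254 and 239 PETs. That was 841.9 and 942.8 PPM, the highest of any short loop named here. At day 3 a single H3K27ac anchor of 37226 bp overlapped both ends. A single ARID1A anchor overlapped both ends as well, and another that touched 1 end gave an ARID1A loop of 31 and 49 PETs. The 10q24.31 loop (chromosome 10, 102104661 to 102111460 and 102113292 to 102138296) held 165 and 139 PETs and also lay in a single H3K27ac anchor at day 3, of 40817 bp. Of the 10 strongest day 0 short loops, 5 lay in a single H3K27ac anchor at day 3 and 5 in a single ARID1A anchor.

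One of the 10 had no anchor at either end in the other groups. It joined 65896149 to 65915707 and 65918088 to 65933262 in 12q14.3 (chromosome 12) and held 143 and 122 PETs at day 0. The 1p36.23 window (chromosome 1, 8100000 to 8200000) had the highest mean short-loop PPM over both day 0 libraries, although a 17q21.31 window was above it in replicate 2. It held 30 and 12 short-loop PETs for H3K27ac at day 3, and 365 and 272 over 4 loops at day 0. Contacts at day 3 were listed there at a longer span. Between the anchors that overlap 8171644 to 8184445 and 8188756 to 8205045, H3K27ac had 321 and 324 PETs at day 3 in a loop of 27.6 kb, against 150 and 121 PETs at day 0 in a loop of 18.9 kb. Scaled to the library the order was the opposite, with 345.5 and 329.9 PPM at day 3, against 497.2 and 477.3 at day 0. Both ends of another strong day 0 loop of the window (8129343 to 8146043 and 8147667 to 8162770) lay in a single day 3 anchor of 35835 bp.

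**Figure D4:**
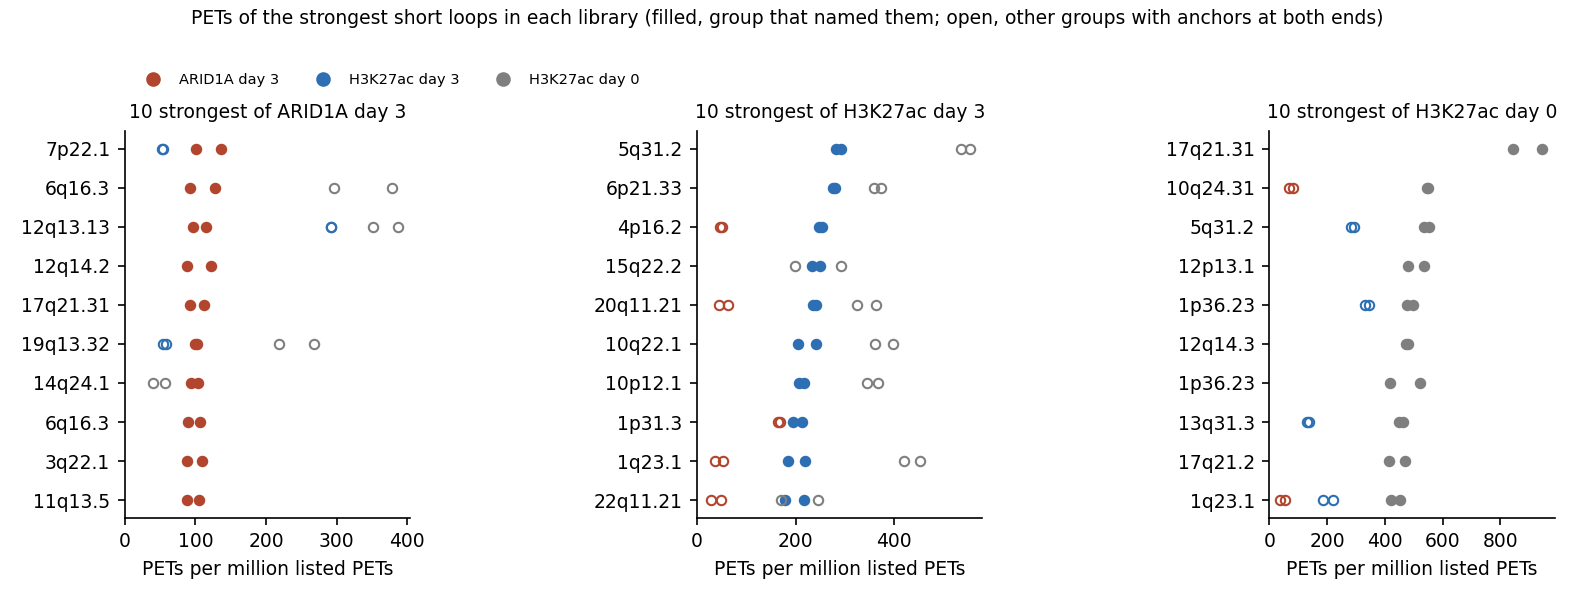
PETs scaled to the library (PPM, as on the axis) of the 10 strongest short loops of each group, 1 point per library. Filled points are the group that named the loop, and open points are loops of any span in other groups with anchors at both ends. A missing colour means that the group lacked an anchor at 1 or both ends, or had a single anchor overlapping both. In that last case a listed loop is not drawn either. The day 0 loops of 17q21.31 reach 841.9 and 942.8, above every other loop shown.

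Short contacts were then tested where both groups had been able to record them. Overlapping anchors of all files were merged, PETs were summed per pair of merged anchors and span class, and a short pair entered only if each group had short-range anchors of its own there. These short pairs held 34.9% and 35.4% of the short-loop PETs of H3K27ac at day 3, and 47.1% and 47.0% of those at day 0. In the ARID1A comparison they held 25.1% and 24.9% of ARID1A short-loop PETs and 44.7% of those of each H3K27ac library. The tests thus cover the minority of short-loop PETs that could be compared.

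For H3K27ac at day 3 against day 0, edgeR's quasi-likelihood test called 110 short pairs higher and 201 lower of 832 tested (Benjamini-Hochberg adjusted p under 0.05 over all 16990 pairs, short and longer). Over all pairs, 8.95% were called higher and 7.12% lower, and for short pairs 13.2% and 24.2%. Either direction was called for 37.4% of short pairs and 16.1% of all pairs. Short pairs had more PETs than longer ones. The median log2 fold change was -0.23 for short pairs, 0.09 for longer pairs and 0.07 over all.

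The split between directions depended on settings. With scaling to all PETs of a library, the median of all pairs moved by -0.47, and 60 short pairs were higher and 371 lower. Without a filter on low counts 134 were higher and 80 lower, and with the deposited value at 0.01 or less 234 and 35. In the value setting of both comparisons, loops above 0.01 entered as 0 PETs in that library. The median log2 fold change of short pairs was then 7.87 for day 3 over day 0, so this split mixes passing the threshold with PET counts. Calls numbered 200 without day 0 replicate 1.

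For ARID1A against H3K27ac at day 3, 572 short pairs were higher and 386 lower of 1930 tested, with 28359 pairs in the fit. Over all pairs 14.5% were called higher and 18.8% lower. Of short pairs, 29.6% were called higher, and the share called lower was near that of all pairs. Either direction was called for 49.6% of short pairs and 33.4% of all pairs. The median log2 fold change was 0.23 for short pairs, -0.56 for longer pairs and -0.51 over all. With scaling to all PETs of a library, the median of all pairs moved by -0.55 and the split was 392 higher and 616 lower. Leaving out 1 library moved the calls to 612 without ARID1A replicate 1, 583 without ARID1A replicate 2, 625 without H3K27ac replicate 1 and 609 without H3K27ac replicate 2. The direction that prevailed depended on settings here too. Of the calls, 314 were higher and 311 lower without H3K27ac replicate 1, 295 and 314 without H3K27ac replicate 2, and 159 and 280 at a deposited value of 0.01 or less. Without a filter on low counts edgeR called 0 of 2020 short pairs (905 had an unadjusted p under 0.05, and DESeq2 called 598 with the filter), and all 20 ARID1A pairs named here lost their call.

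The fold of a short pair went with how many bases its anchors covered in the 2 groups. Fold and width ratio had a Spearman correlation of 0.74 over the 832 pairs of the day comparison and 0.66 over the 1930 pairs of the antibody comparison. Pairs share libraries and anchors, so this is a description. Among pairs anchored over over 2 times as many bases at day 3 as at day 0, 57 of 75 were called higher and none lower. Among those of similar width, 0.8 to 1.25 times, 1 of 387 was called higher and 141 lower. For ARID1A against H3K27ac, 103 of 132 pairs were higher and 1 lower where ARID1A anchors covered over 2 times the bases, and at similar width 164 were higher and 166 lower of 865. The part of width in each fold was not tested.

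**Figure D5:**
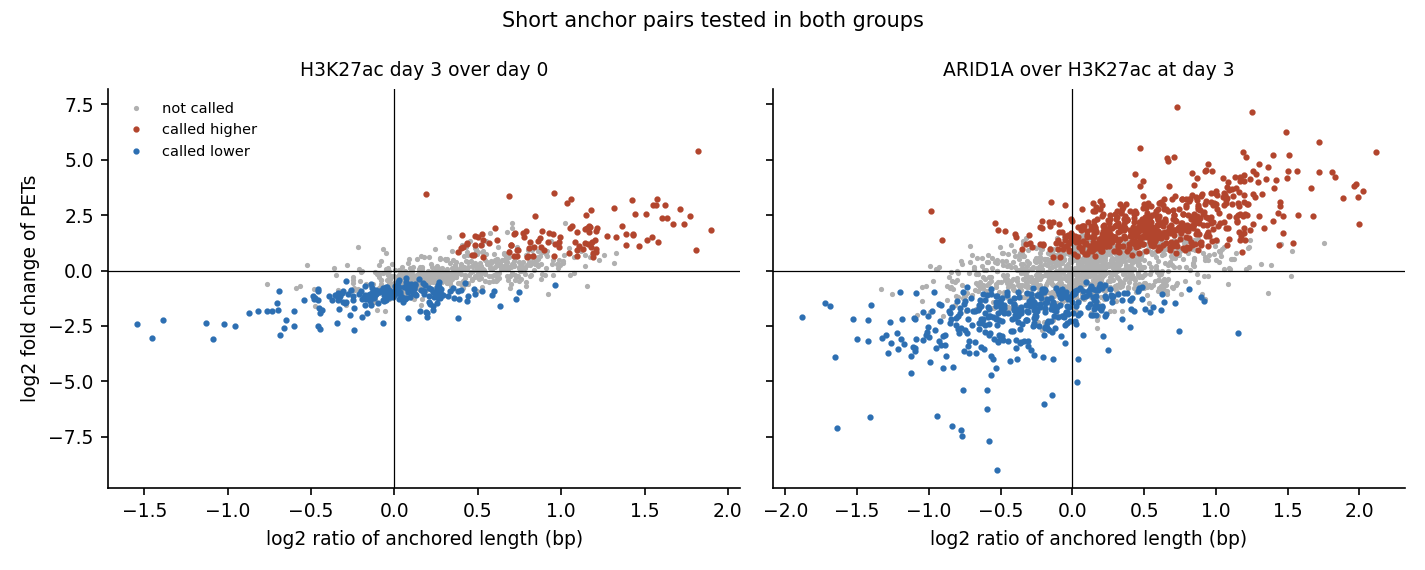
Log2 fold change of PETs against the log2 ratio of bases covered by anchors, 1 point per short pair tested (832 for H3K27ac day 3 over day 0, 1930 for ARID1A over H3K27ac at day 3). Red and blue points were called higher and lower by edgeR, and at similar width (0.8 to 1.25 times) they number 1 and 141 for day 3 over day 0, and 164 and 166 for ARID1A over H3K27ac.

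Pairs named here had the smallest p in each direction. In 1p36.22 (chromosome 1, within 9945777 to 9991541) H3K27ac short loops held 256 and 264 PETs at day 3, against 14 and 13 at day 0. Day 3 was far above day 0 in both libraries, with a log2 fold change of 2.95 ± 0.21 (SE, edgeR adjusted p = 4.24e-40). Counted over all spans the site had 313 and 320 PETs at day 3, against 55 and 52 at day 0, a log2 fold change of 1.26. Anchors there covered 39826 bp at day 3 and 13566 bp at day 0.

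In 19p13.3 (chromosome 19, within 2447092 to 2481130) there were 206 and 224 PETs at day 3, against 7 and 15 at day 0 (log2 fold change 2.97 ± 0.23). Anchors covered 25189 bp at day 3 and 8192 bp at day 0. In 16p11.2 (chromosome 16, 28168726 to 28184141 with 28188067 to 28208348) day 3 had 63 and 55 PETs and day 0 had 1 and 0, too few for a fold, and over all spans day 0 had 4 and 2. That pair passed the count filter through day 3 alone. The other pairs named as higher lay in 10q26.3, 10q21.3, 12p13.31, 9q33.3, 10q22.2, 3q29 and 17q21.31. Of these, the 9q33.3 pair (5 and 1 PETs at day 0) and the 3q29 pair (3 and 6) also passed through day 3 alone. Their folds only describe them. All 10 had anchors covering more bases at day 3, by 1.65 to 3.54 times. The largest adjusted p among them was 2.88e-11. Over all spans several of these folds were smaller. In 9q33.3 the log2 fold change was 3.21 for short spans and 0.30 over all spans, where the call was lost (edgeR adjusted p = 0.441). It was 2.53 and 0.81 in 10q21.3, 1.69 and 0.40 in 10q22.2, 3.24 and 1.91 in 10q26.3, and 2.12 and 1.39 in 17q21.31, on the same scales.

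The pair with the smallest p among those lower at day 3 was in 13q31.3 (chromosome 13, within 91059695 to 91105338). It held 59 and 62 short-loop PETs at day 3 (63.5 and 63.1 PPM), against 135 and 117 at day 0 (447 and 462 PPM). The log2 fold change was -2.36 ± 0.16 (edgeR adjusted p = 3.71e-47), with 36970 bp of anchors at day 3 and 38736 bp at day 0. At day 3 other loops of the same site spanned more than 20 kb, and counted over all spans day 3 had 157 and 167 PETs, against 135 and 117 at day 0, a log2 fold change of -0.94. In 4q21.21 (chromosome 4, within 81171092 to 81242460) there were 46 and 52 short-loop PETs at day 3, against 113 and 99 at day 0 (log2 fold change -2.42 ± 0.17), and -0.98 over all spans.

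In 17q21.31 (chromosome 17, within 43222461 to 43255644) there were 118 and 110 PETs at day 3, against 153 and 129 at day 0. The log2 fold change was -1.61 ± 0.14 although anchors covered 32605 bp at day 3 and 20982 bp at day 0. In 5q22.2 (chromosome 5, within 112282755 to 112321988) day 3 had 43 and 66 PETs and day 0 had 101 and 67 (-1.93 ± 0.18), with 24941 bp at day 3 and 21789 bp at day 0. These were the only 2 of the 10 named as lower whose anchors covered more bases at day 3.

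The 2p22.1 pair (chromosome 2, within 39818491 to 39879377) held 29 and 42 short-loop PETs at day 3, against 88 and 67 at day 0 (-2.43 ± 0.20). Over all spans it had 396 and 389 PETs at day 3, against 90 and 69 at day 0, a log2 fold change of 1.00, so the short contacts were lower and the contacts of the site as a whole higher. The others named as lower were in 22q13.2, 3p21.31, 7p15.2, 19p13.3 and 10q11.23, with log2 fold changes of -2.89 to -1.75. Over all spans the 19p13.3 pair had 149 and 164 PETs at day 3, against 68 and 82 at day 0, a log2 fold change of -0.24 that was not called (edgeR adjusted p = 0.29). The 7p15.2 pair had -2.35 for short spans and -0.62 over all spans.

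For ARID1A over H3K27ac, the pair with the smallest p lay in 20q11.21 (chromosome 20, 30374679 to 30385043 with 30386549 to 30411724). ARID1A had 41 and 37 PETs, against 2 in both H3K27ac libraries. The pair thus passed the count filter through ARID1A alone, and its fold and p only describe it. The log2 fold change was 5.80 ± 0.42 (edgeR adjusted p = 7.81e-41), with anchors over 35226 bp for ARID1A and 10728 bp for H3K27ac, and 4.09 over all spans. In 1p34.1 (chromosome 1, 46060313 to 46071511 with 46072002 to 46088604) ARID1A had 29 and 38 PETs, against 5 and 2 for H3K27ac (4.83 ± 0.40). This pair also passed the count filter through ARID1A alone, so its fold only describes it.

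In 5q31.3 (chromosome 5, 139552951 to 139573471 with 139575405 to 139586953) ARID1A had 38 and 48 PETs, against 17 and 24 for H3K27ac (2.71 ± 0.25, and 1.47 over all spans). This pair had the smallest width ratio of the 10 named as higher, 1.497, and the largest was 4.07 in 14q21.3, where the log2 fold change was 3.57 for short spans and 2.30 over all spans. The others lay in 2q23.2, 15q21.2, 11p15.4, 9q33.3, 20q13.12 and 1p36.13. Of these, the 9q33.3 pair passed the count filter through ARID1A alone, with 2 and 5 PETs for H3K27ac. Each of the 10 was anchored over more bases in ARID1A.

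Lower for ARID1A, the 11p15.3 pair (chromosome 11, within 12062604 to 12116139) held 4 PETs in both ARID1A libraries, and 173 and 191 for H3K27ac. The log2 fold change was -3.84 ± 0.32 (edgeR adjusted p = 7.63e-30), and -1.26 over all spans. In 22q13.1 (chromosome 22, within 39682221 to 39717837) ARID1A had 3 and 2 PETs, against 135 and 121 for H3K27ac (-4.00 ± 0.38). This pair passed the count filter through H3K27ac alone, so that fold only describes it. Anchors there covered nearly as many bases in both, 32620 bp for ARID1A and 31815 bp for H3K27ac.

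In 15q14 (chromosome 15, within 34324897 to 34354154) ARID1A had 8 and 9 PETs, against 151 and 171 for H3K27ac (-2.59 ± 0.27), with anchors over 23046 bp for ARID1A and 26105 bp for H3K27ac. In 6p21.32 (chromosome 6, 33263296 to 33274069 with 33277256 to 33294851) no short-span ARID1A PET was listed although anchors were called at both ends, against 89 and 103 PETs for H3K27ac. Scaled to all PETs of a library, short contacts of ARID1A were at least 30.2-fold lower there, taking a floor of 3 PETs over the group. The log2 fold changes given here use edgeR's own scaling instead. Over all spans ARID1A had 0 and 4 PETs, against 106 and 119 for H3K27ac, a log2 fold change of -4.13. The 12p13.31 pair (chromosome 12, 6425278 to 6441975 with 6442662 to 6458043) was named in both comparisons, with 6 and 10 ARID1A PETs and with 154 and 171 for H3K27ac at day 3. At day 0 it had 22 and 14. The others named as lower were in 11p15.5, 1p34.1, 20q13.33, 16p13.3 and 19p13.2. The 6p21.32, 11p15.5, 1p34.1, 20q13.33 and 16p13.3 pairs passed the count filter through H3K27ac alone, so their folds only describe them. In 1p34.1 the log2 fold change was -3.92 for short spans and -1.28 over all spans.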

How the data were processed

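The 6 HiChIP libraries of G401 cells were grouped by the sample titles into ARID1A day 3, H3K27ac day 3 and H3K27ac day 0 (2 each). Reads were paired, 150 bp, per the labels' protocols. HiC-Pro, Bowtie2 and hg19 are named, without versions, per the submitters' processing notes; the calling of loops and anchors is not given in the sources used here. The deposited PET counts were whole numbers without normalisation. A second deposited column lies between 0 and 1. No header names it as p-value or q-value, and it served only as a threshold of 0.01. Coordinates are as the files give them, counted from 0 or 1 without statement.

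Short loops had anchor midpoints under 20 kb apart; listed spans began at 5 kb. Depth was 253502 to 982141 PETs per library. Values per library were compared by exact two-sided permutation tests over 6 arrangements. Shares carry 95% Wilson intervals where each group gives 1 value. The smallest library set the depth for thinning.

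For tests per site, anchors overlapping by 1 bp or more were merged (51970 distinct anchors to 30001). PETs were summed by pair of merged anchors and span class, and a loop inside 1 merged anchor was kept. Pairs needed anchors of their class in both groups and 4 PETs in at least 2 libraries, which could both be of 1 group. The fit used edgeR 4.0.16 (quasi-likelihood test, TMM) in R 4.3.3 over short and longer pairs, with Benjamini-Hochberg adjustment at 0.05, and was tested on simulated data. DESeq2 1.42.0 was an alternative. Other values used Python 3.11.15, pandas 2.3.3, numpy 2.4.6 and scipy 1.17.1. Bands come from circlize 0.4.16.

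Named sites are the 10 short loops with the highest mean PPM listed in both replicates of a group, the 10 short pairs with the smallest p per comparison and direction among calls whose libraries do not overlap, and the 100 kb windows with the most short-loop PPM. Runs, chromosomes and pairs outside this rule were described after their values were seen. The limit, the members and the lists were chosen with earlier results of these data known. Alternatives changed the span limit, the threshold, depth, filter, scaling, tool, merging and libraries. Gene lists were not used, since no hg19 annotation was used here.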

Additional observations from a re-analysis of the deposited data

How the results depend on the processing

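Over 10 comparisons of library values, 86 of 90 alternative values kept their direction and 4 turned. For H3K27ac at day 3 over day 0, the ratio of the share of loops that are short was 1.252 after thinning, PETs per short loop 0.340 after thinning (6.57 and 19.3 PETs) and 0.974 to 1.16 without any 1 library (0.974 without day 0 replicate 2), and the listed share of possible pairs 1.06 at a value of 0.01 or less. Without any 1 library, the other ratios of day 3 over day 0 were 2.69 to 2.70 for number, 0.735 to 0.775 for share of loops and 0.828 to 0.834 for share of PETs. The causes were not tested; thinning removes weak loops by construction.

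Short loops in both replicates were 93.9%, 98.7% and 99.4% with 2 PETs or more (ARID1A day 3, H3K27ac day 3, H3K27ac day 0) and 51.8%, 74.1% and 70.5% at a value of 0.01 or less. They were 81.0% and 85.7% for ARID1A and H3K27ac at day 3 after thinning, and 92.3% and 98.5% under a 15 kb limit.

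Of short pairs, 311 (day 3 over day 0) and 958 (ARID1A over H3K27ac) were called. These became 180 and 598 with DESeq2, 4413 and 7456 over all merged pairs, where sites without an anchor enter as 0, and 2705 and 3881 in 100 kb windows, which hold such sites too. They became 78 and 382 with 50% reciprocal overlap, 162 and 468 under 15 kb, 142 and 327 with anchors of similar width, and 74 and 295 after thinning (79 and 435 with edgeR's newer method). At a value of 0.01 or less 439 ARID1A pairs were called. Without a filter edgeR called 0 ARID1A pairs of 2020 (905 at an unadjusted p under 0.05, and 598 by DESeq2 with the filter). Leaving out 1 library gave 200 to 226 and 583 to 625 calls. A replicate block gave 283 and 888 and changed no call of a named pair; the replicate numbers are shared by label only (correlation of deviations 0.08 and -0.02 over short pairs). The similar-width, newer-method and all-span alternatives were chosen after seeing the data.

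For the 40 named pairs, 576 of 609 alternative values kept direction and call, 30 lost the call and 3 turned. The log2 fold change turned to 0.13 in 4q21.21 with reciprocal overlap, 0.48 in 5q22.2 at a value of 0.01 or less, and 1.00 in 2p22.1 over all spans. All 20 named ARID1A pairs lost their call without a filter. Depth was lowest at day 0 (301703 and 253502 PETs).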
